A study of Homo sapiens with 6 samples.

Results

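The 50 genes described here are chaperones and co-chaperones of human cells, among them the 2 heat shock factors HSF1 and HSF2 that regulate such genes. They are the rows of the deposited gene table whose symbol belongs to a list of 50 names, out of 63563 genes in all, and every name was found. The list goes by the name of cytosolic chaperones. It also holds 5 mitochondrial chaperones (HSPD1, HSPE1, HSPA9, TRAP1 and DNAJA3) and HSPB11, which despite its name is a component of intraflagellar transport. RKO is a human colorectal cancer cell line, and its poly(A) RNA was sequenced. The OVER43 group is RKO stably transfected with pcDNA3.1 carrying the cDNA of Cx43, the gap junction protein encoded by GJA1, in 3 libraries. The EV group is RKO with the empty vector, with the genotype given as WT, in 3 libraries. The comparison of OVER43 with EV addresses what Cx43 overexpression does to the transcripts of these cells. Whether a transfected line is 1 clone or a pool, and whether the libraries come from separate cultures, is not given in the sources used here, so the p-values measure the spread between these libraries, which may be technical.

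Chaperones bind unfolded or partly folded proteins and release them in cycles driven by ATP. HSP70 proteins take up short hydrophobic stretches that J-proteins hand to them, and nucleotide exchange factors let the client go. HSP90 receives many kinases and steroid receptors from HSP70 with the help of a set of co-chaperones, while the ring-shaped TRiC chaperonin folds actin and tubulin. In stressed cells heat shock factor HSF1 binds heat shock elements, arrays of inverted nGAAn units, in the promoters of many of these genes, and cancer cells commonly hold high levels of them.

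The introduced gene GJA1 measured 23.2, 26.05 and 24.9 FPKM (fragments per kilobase of transcript and per M fragments sequenced) in OVER43 libraries, against 0.300, 0.351 and 0.394 FPKM in EV libraries. All 6 libraries thus go with their labels, although with 3 against 3 an exact permutation test cannot go below the p of 0.1 that it gave. Low FPKM values step by the worth of 1 fragment, which places the OVER43 libraries at 46.2 to 49.4 M fragments and the EV libraries at 42.3 to 52.4 M. FPKM summed to 554170 to 566675 in OVER43 libraries and 500290 to 508909 in EV libraries. EV library 2 stood apart from EV libraries 0 and 1 on the second principal component, at −17.2 against 9 and 8.03, a component with 11.1% of the variance. Of 10 colorectal epithelial markers, 4 (EPCAM, KRT8, KRT18 and CDX2) reached 1 FPKM, while KRT20 and CEACAM5 were listed at 0 in all libraries. The 10 markers summed to 199 to 204 FPKM in OVER43 and 156 to 164 FPKM in EV, but not all moved one way: KRT18 rose (148 ± 0.989 FPKM in OVER43 and 79.4 ± 3.68 FPKM in EV) and KRT8 fell (24.6 ± 1.63 FPKM in OVER43 and 58.7 ± 1.92 FPKM in EV; difference of −1.22 in log2, adjusted p = 3.71e-06). No marker of fibroblasts (0 of 6), leukocytes (0 of 5) or endothelium (0 of 4) reached 1 FPKM, and each list summed to less than 1 FPKM in every library. PTPRC and CD3E were listed at 0 in all 6.

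Most of the chaperone genes were higher in OVER43 than in EV. Of the 50, 47 passed the filter, which asks for 1 FPKM or more in 3 or more of the 6 libraries; HSPA1A, HSPA2 and HSF1 did not. With limma on log2(FPKM + 1) and an adjusted p under 0.05 over all genes tested, 36 of the 47 rose, 2 fell (STIP1 and HSPB11) and 9 passed in neither direction. Over all 12205 genes tested, 45.9% were called, 28.4% as higher and 17.5% as lower. The OVER43 libraries lay wholly above the EV libraries for 39 chaperone genes, against 33.9% of all genes, and wholly below for 2, against 22.4%. The median log2 difference was 0.32 over the chaperone genes and 0.05 over all genes tested. The 50 genes together made up 1.95%, 1.94% and 1.93% of the FPKM of the OVER43 libraries and 1.57%, 1.56% and 1.52% of that of the EV libraries.

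**Figure D1:**
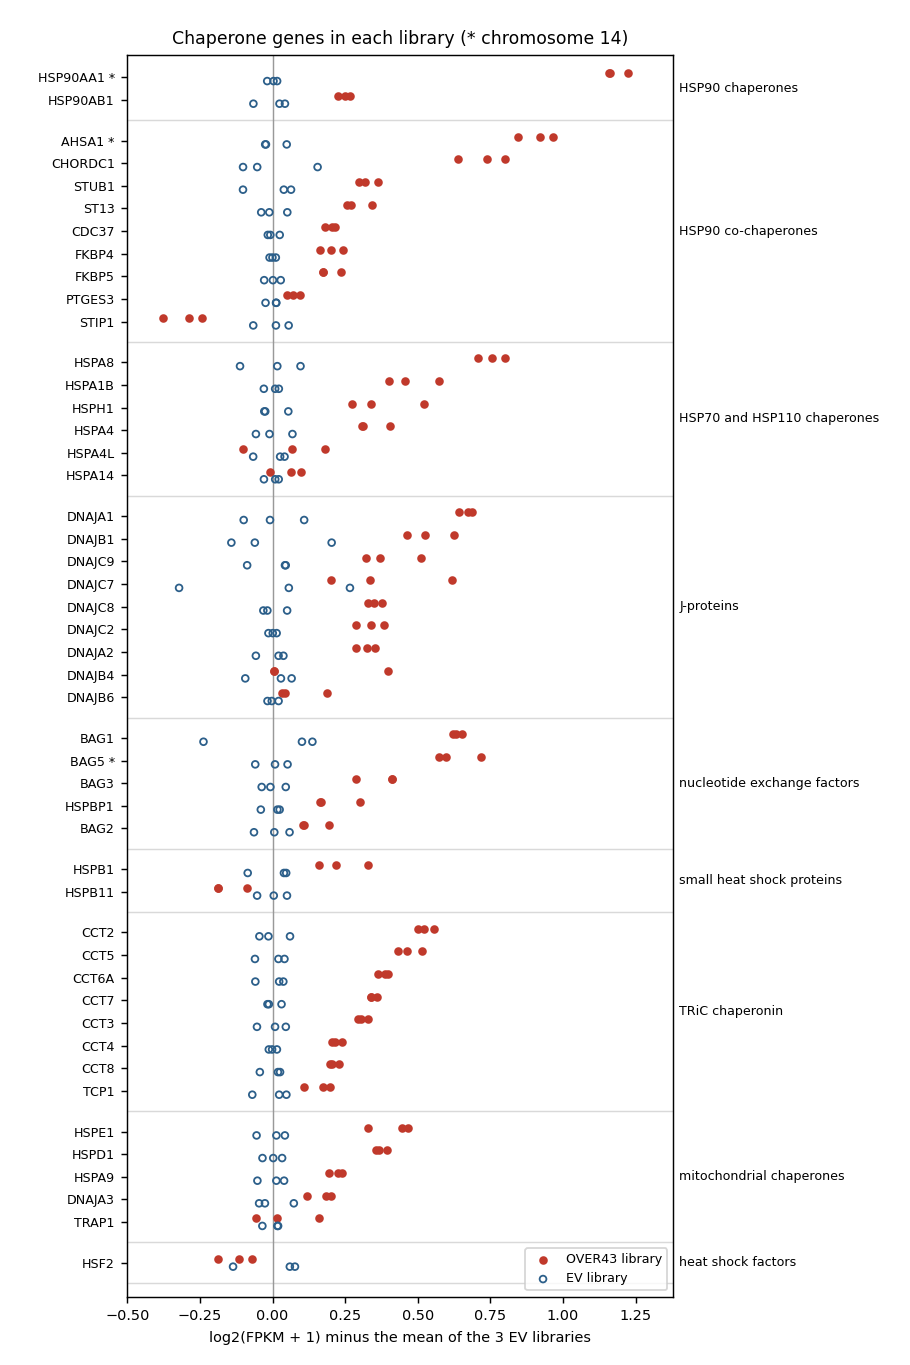
Each row is 1 of the 47 tested chaperone genes, grouped by role, with filled points for the 3 OVER43 libraries and open points for the 3 EV libraries; the horizontal axis gives log2(FPKM + 1) minus the mean of the EV libraries, and an asterisk marks chromosome 14. The OVER43 points lie right of all EV points for 39 genes and left of them for STIP1 and HSPB11.

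These counts are read here beside expression level, because abundant genes rose more often in OVER43 over the whole table. In bands chosen after the data were seen, the share of all genes that rose was 12.7% at a mean of 1 to 10 FPKM, 29.5% at 10 to 30, 48.2% at 30 to 100, 67.2% at 100 to 300 and 73.9% from 300 upwards. The chaperone genes that rose numbered 1 of 3, 5 of 8, 9 of 12, 14 of 17 and 7 of 7 in the same bands. Between 100 and 300 FPKM, the band with most chaperone genes, their median log2 difference of 0.22 was close to the 0.21 of all genes. From 300 FPKM upwards it was 0.37 against 0.18 for all genes, and between 30 and 100 FPKM it was 0.32 against 0.14.

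**Figure D2:**
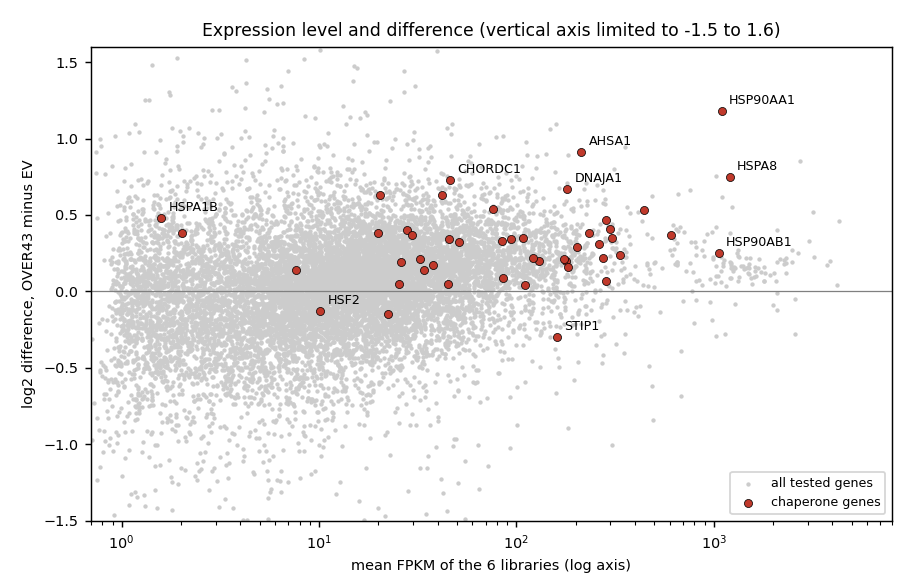
Mean FPKM of the 6 libraries (horizontal, log axis) is plotted against the log2 difference of OVER43 minus EV (vertical, over a limited range) for all tested genes in grey and the chaperone genes in red. HSP90AA1 and HSPA8 are among the most abundant and have differences of 1.18 and 0.75, while STIP1 lies below 0.

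The scaling of the libraries moved the count as well. All genes had a median difference of −0.08 when every library was set to the same FPKM sum, against 0.05 as deposited; 15.3% of genes then rose and 29.3% fell. Under that scaling 27 chaperone genes rose and 4 fell, with a median of 0.18. With TMM scaling 34 rose and 2 fell, against 23.2% and 21% of all genes. After quantile scaling 25 rose and 4 fell, with a median of 0.15 against 0.01 for all genes, of which 20.9% rose and 20.1% fell. All of these 25 and 27 were among the 36. Values below are as deposited, with n = 3 libraries per group, SD after ± and differences as log2(FPKM + 1) of OVER43 minus EV; the pseudocount understates the change of low genes. In bulk RNA, more cells with a transcript and more of it per cell cannot be told apart. The counts by role below stand beside the 28.4% of all tested genes that rose and the 17.5% that fell. They also stand beside the shares by expression level given above.

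Both cytosolic HSP90 genes rose. HSP90AA1, the stress-inducible form, had 1511, 1506 and 1575 FPKM in the OVER43 libraries and 676, 682 and 666 FPKM in the EV libraries. HSP90AB1, the constitutive form, had 1134, 1153 and 1165 FPKM in the OVER43 libraries and 985, 998 and 925 FPKM in the EV libraries. Neither gene had overlapping groups. HSP90AA1 rose 2.27-fold (difference of 1.18 in log2, SE 0.0256, adjusted p = 6.41e-08) and HSP90AB1 1.19-fold (difference of 0.25 in log2, SE 0.0317, adjusted p = 0.000471). The call for HSP90AB1 was lost with quantile scaling, where its difference was 0.05 (adjusted p = 0.199). HSP90AA1 made up 57.1%, 56.6% and 57.5% of the summed HSP90 FPKM in OVER43 libraries and 40.7%, 40.6% and 41.8% in EV libraries, so the more abundant of the pair was HSP90AA1 in OVER43 and HSP90AB1 in EV. Their sum was 2645, 2659 and 2740 FPKM in OVER43 and 1661, 1680 and 1591 FPKM in EV. A single protein-coding transcript, HSP90AA1-201, held 98.6% of the gene in both groups, with 1509 ± 35.8 FPKM in OVER43 and 665 ± 7.97 FPKM in EV.

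**Figure D3:**
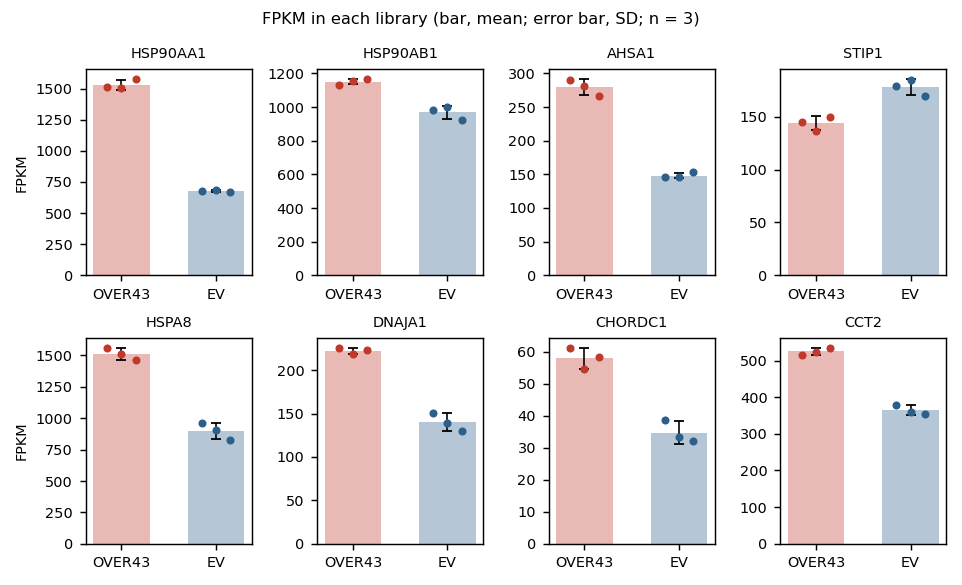
FPKM per library (points), with bars for the mean and error bars for the SD of 3 libraries, OVER43 left and EV right of each panel, each vertical axis starting at 0. STIP1 is the 1 gene of these 8 that is lower in OVER43; in the other panels every OVER43 point is above every EV point.

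The promoters of the chaperone genes were searched for the heat shock element. The window ran from 250 bases before to 50 bases after the RefSeq start (GRCh38.p14), and 43 of the 50 genes had one or, where RefSeq gives several starts, more; a gene counts as a carrier if any of its windows holds the run. A run of 3 units, in which GAA and TTC alternate with 2 bases between units, was sought on both strands. It occurred in 7 of the 43 genes (16.3%) and in 166 of 27305 genes with a window (0.608%). A pair of units, GAANNTTC or TTCNNGAA, which every longer run contains, occurred in 19 of 43 (44.2%) and in 16.2% of all genes. The 7 are HSP90AA1, HSPA8, CHORDC1, HSP90AB1, HSPD1, DNAJA1 and DNAJB6, of which 6 rose, with a median log2 difference of 0.67. The 34 tested genes with a window and no such run had a median of 0.32, and 26 of them rose. They include the stress-inducible DNAJB1 (0.54) and HSPA1B (0.48), which have a pair of units in a window. Lack of the run in these windows thus does not mean that a gene lacks heat shock elements. Of the carriers, HSP90AA1, HSPA8, HSP90AB1 and HSPD1 averaged above 300 FPKM, where 73.9% of all genes rose. HSP90AA1 also lies on chromosome 14, where the other tested genes had a median of 0.43. A match to the run is letters only, and binding was not measured. Whether the element bears on these differences was not tested.

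Shown 5′ to 3′ on the strand of the gene are 5 of these windows, those of the 4 most abundant carriers and of CHORDC1, which has most runs, with the runs of 3 units in capitals. The run of HSP90AA1 (chr14:102086995-102087294, minus strand) starts 88 bases before the start of the gene. Those of HSPA8 (chr11:123062087-123062386, minus strand) start at 230 and 55 bases before. CHORDC1 (chr11:90223000-90223299, minus strand) has 3 overlapping runs, the first at 60 bases before. In HSP90AB1 (chr6:44247693-44247992, plus strand) they start at 165 and 112 bases before. HSPD1 (chr2:197499791-197500090, minus strand) has 2 overlapping runs within 18 bases, which lie 294 bases before the start of HSPE1, its neighbour on the other strand. This HSPD1 start is 539 bases from that of HSPE1; RefSeq gives HSPD1 another start, as it does HSP90AA1 and HSP90AB1, and the windows of those other starts hold no run.
HSP90AA1: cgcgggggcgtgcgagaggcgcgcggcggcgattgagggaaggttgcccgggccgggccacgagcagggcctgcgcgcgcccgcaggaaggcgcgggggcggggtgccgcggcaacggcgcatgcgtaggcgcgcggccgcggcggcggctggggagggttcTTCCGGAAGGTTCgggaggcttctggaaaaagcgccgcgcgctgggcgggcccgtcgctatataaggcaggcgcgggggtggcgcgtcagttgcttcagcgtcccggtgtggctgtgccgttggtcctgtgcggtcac
HSPA8: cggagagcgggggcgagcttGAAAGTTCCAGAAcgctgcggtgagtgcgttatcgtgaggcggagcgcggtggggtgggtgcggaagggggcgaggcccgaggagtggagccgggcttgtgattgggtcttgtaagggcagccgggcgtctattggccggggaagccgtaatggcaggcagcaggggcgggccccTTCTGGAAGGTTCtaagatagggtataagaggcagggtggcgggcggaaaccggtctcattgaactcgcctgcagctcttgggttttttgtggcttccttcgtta
CHORDC1: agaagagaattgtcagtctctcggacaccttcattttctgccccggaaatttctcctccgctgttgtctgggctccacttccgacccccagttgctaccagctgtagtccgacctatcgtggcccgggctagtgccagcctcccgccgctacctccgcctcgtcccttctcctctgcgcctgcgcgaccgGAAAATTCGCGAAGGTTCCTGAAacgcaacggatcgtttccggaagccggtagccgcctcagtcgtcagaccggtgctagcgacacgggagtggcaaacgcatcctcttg
HSP90AB1: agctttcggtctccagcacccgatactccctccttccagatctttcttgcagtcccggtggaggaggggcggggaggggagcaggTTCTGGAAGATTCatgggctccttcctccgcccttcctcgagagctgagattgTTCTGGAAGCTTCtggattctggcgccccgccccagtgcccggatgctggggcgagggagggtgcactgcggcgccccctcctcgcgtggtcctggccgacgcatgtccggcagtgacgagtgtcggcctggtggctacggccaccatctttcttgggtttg
HSPD1: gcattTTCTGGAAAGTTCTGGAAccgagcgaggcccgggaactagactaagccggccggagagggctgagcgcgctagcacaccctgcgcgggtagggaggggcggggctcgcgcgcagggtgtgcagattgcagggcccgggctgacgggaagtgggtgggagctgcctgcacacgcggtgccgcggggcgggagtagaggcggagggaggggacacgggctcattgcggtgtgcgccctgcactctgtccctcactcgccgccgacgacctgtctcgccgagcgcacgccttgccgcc

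Among the 9 genes listed as co-chaperones of HSP90, 7 rose, STIP1 fell and PTGES3 passed in neither direction, with a median difference of 0.20. The class counts ST13, which acts on HSP70. AHSA1, which speeds up the ATPase of HSP90, had 290.5, 281 and 267 FPKM in the OVER43 libraries and 146, 146 and 153 FPKM in the EV libraries. CHORDC1, a zinc-binding HSP90 partner also called morgana, had 61.1, 54.5 and 58.5 FPKM in the OVER43 libraries and 38.7, 33.4 and 32.2 FPKM in the EV libraries. For both, every OVER43 library was above every EV library, with AHSA1 up 1.89-fold (difference of 0.91 in log2, SE 0.0391, adjusted p = 2.65e-06) and CHORDC1 up 1.67-fold (difference of 0.73 in log2, SE 0.0737, adjusted p = 0.000154). STIP1, or HOP, bridges HSP70 and HSP90 and passes clients between them. It had 146, 137 and 150.2 FPKM in the OVER43 libraries and 179, 185 and 169.9 FPKM in the EV libraries. Here the OVER43 libraries were all below the EV libraries (difference of −0.30 in log2, SE 0.0453, adjusted p = 0.00103), and the authors' deposited table also calls STIP1 significant, at q = 0.0145. An isoform entry that spans the whole STIP1 gene with its introns was higher in OVER43, with 0.629, 0.561 and 0.661 FPKM in OVER43 libraries and 0.394, 0.387 and 0.384 FPKM in EV libraries.

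STIP1 and AHSA1 thus parted in their level relative to HSP90. STIP1 amounted to 5.51%, 5.15% and 5.48% of the summed HSP90 FPKM in OVER43 libraries and 10.8%, 11.01% and 10.7% in EV libraries. AHSA1 amounted to 10.98%, 10.6% and 9.74% in OVER43 libraries and 8.76%, 8.68% and 9.63% in EV libraries. Both ratios held the groups apart, AHSA1 narrowly. HSP90AA1, part of the HSP90 sum, and AHSA1 lie on chromosome 14, where the other tested genes had a median of 0.43. Whether this bears on the ratios was not tested. Of the remaining co-chaperones, STUB1, a ubiquitin ligase (also known as CHIP) that tags chaperone clients, averaged 93.8 ± 2.16 FPKM in OVER43 and 74.7 ± 4.60 FPKM in EV (difference of 0.33 in log2, adjusted p = 0.00106). ST13, or HIP, which stabilises HSP70 in its ADP form, averaged 223 ± 7.25 FPKM in OVER43 and 183 ± 5.88 FPKM in EV (difference of 0.29 in log2, adjusted p = 0.000434). CDC37, which brings kinases to HSP90 and shares its table row with the microRNA gene MIR1181, averaged 191 ± 2.46 FPKM in OVER43 and 166 ± 2.52 FPKM in EV (difference of 0.20 in log2, adjusted p = 0.000705). The immunophilins FKBP4 and FKBP5, partners of steroid receptor complexes, had differences of 0.20 and 0.19 (adjusted p = 0.00133 and 0.00946). CDC37, FKBP4 and FKBP5 lost their calls with quantile and equal-sum scaling. PTGES3, or p23, which holds HSP90 in its closed form, averaged 293 ± 4.56 FPKM in OVER43 and 279 ± 4.08 FPKM in EV (difference of 0.07 in log2, adjusted p = 0.0561); it was called lower with quantile scaling (−0.10) and with equal sums (−0.07).

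Of 8 HSP70 and HSP110 genes, 6 were tested and 4 rose. HSPA8, the constitutive HSP70 also called HSC70, had 1563, 1516 and 1467 FPKM in the OVER43 libraries and 959.6, 908 and 831 FPKM in the EV libraries. With HSP90AA1 and HSP90AB1 it was among the 3 most abundant of the 50 genes in both groups. Its groups did not overlap, and it rose 1.68-fold (difference of 0.75 in log2, SE 0.0504, adjusted p = 2.17e-05). The increase was seen in its main protein-coding transcript HSPA8-201, with 929.9 ± 24.4 FPKM in OVER43 and 543 ± 46.2 FPKM in EV, and in the processed transcript HSPA8-220, with 476 ± 33.5 FPKM in OVER43 and 286 ± 24.8 FPKM in EV; each kept its share of the gene, 61.4% and 31.4% in OVER43 and 60.4% and 31.8% in EV. HSPA4 and HSPH1, HSP110 proteins that act as exchange factors of HSP70, also rose. HSPA4 averaged 105 ± 4.12 FPKM in OVER43 and 82.6 ± 3.70 FPKM in EV (difference of 0.34 in log2, adjusted p = 0.000555), and HSPH1 22.7 ± 2.13 FPKM in OVER43 and 17.2 ± 0.596 FPKM in EV (difference of 0.38 in log2, adjusted p = 0.00335). HSPA4L, a relative of HSPA4, averaged 26.01 ± 2.63 FPKM in OVER43 and 25.04 ± 1.04 FPKM in EV (difference of 0.05 in log2, adjusted p = 0.623). HSPA14, an HSP70 of the ribosome-associated complex, averaged 46.2 ± 1.76 FPKM in OVER43 and 44.5 ± 0.835 FPKM in EV (difference of 0.05 in log2, adjusted p = 0.372). Neither passed the test, and the groups of both overlapped.

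The stress-inducible HSP70 genes HSPA1A and HSPA1B cannot be read with the same confidence. They are near-identical copies that share reads, and each has 5 rows in the table, on chromosome 6 and on alternative haplotypes of it. Of the 10 rows, 6 were listed at 0 in all libraries, among them both rows of chromosome 6 itself. The HSPA1B row with the highest mean had 1.97, 1.85 and 2.22 FPKM in the OVER43 libraries and 1.12, 1.17 and 1.19 FPKM in the EV libraries (difference of 0.48 in log2, SE 0.107, adjusted p = 0.00749). The highest HSPA1A row stayed under the filter, with 0.0269, 0.0277 and 0.00949 FPKM in the OVER43 libraries and 0.0340, 0.0104 and 0 FPKM in the EV libraries, and its groups overlapped. The 10 rows summed to 5.93, 5.30 and 5.55 FPKM in OVER43 libraries and 3.80, 2.92 and 2.74 FPKM in EV libraries, with no overlap. A low or zero value in this table need not be a low transcript level, since PGK1, a glycolysis gene, averaged 0.00610 FPKM in OVER43 and 0 in EV. HSPA2, an HSP70 best known from testis and carried on chromosome 14, was not tested and had 0.0319, 0.0186 and 0.0422 FPKM in the OVER43 libraries and 0.0428, 0.0420 and 0.0190 FPKM in the EV libraries, with overlapping groups.

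All 9 J-proteins, which stimulate the ATPase of HSP70, were tested: 6 rose, none fell and 3 passed in neither direction, with a median of 0.35. DNAJA1, a farnesylated partner of HSPA8, had 225, 218 and 224 FPKM in the OVER43 libraries and 151, 139 and 130.3 FPKM in the EV libraries. DNAJB1, the heat-inducible HSP40, had 96.2, 86.01 and 89.8 FPKM in the OVER43 libraries and 71.6, 59.5 and 56.2 FPKM in the EV libraries. The OVER43 libraries were above the EV libraries for both, by 1.59-fold for DNAJA1 (difference of 0.67 in log2, SE 0.0503, adjusted p = 3.76e-05) and 1.45-fold for DNAJB1 (difference of 0.54 in log2, SE 0.0861, adjusted p = 0.00143). DNAJC9, also a histone chaperone, DNAJC8, a splicing-associated protein, DNAJC2, which sits on the ribosome, and DNAJA2 rose by 0.40, 0.35, 0.34 and 0.32. DNAJB6, a suppressor of protein aggregation, averaged 88.6 ± 5.47 FPKM in OVER43 and 83.2 ± 1.12 FPKM in EV (difference of 0.09 in log2, adjusted p = 0.16), although its transcript DNAJB6-201 rose (difference of 0.34 in log2, adjusted p = 0.0316). DNAJC7, a J-protein with TPR repeats, averaged 2.41 ± 0.515 FPKM in OVER43 and 1.63 ± 0.525 FPKM in EV (difference of 0.38 in log2, adjusted p = 0.11), and DNAJB4 8.12 ± 1.49 FPKM in OVER43 and 7.24 ± 0.471 FPKM in EV (difference of 0.14 in log2, adjusted p = 0.369); the groups of both overlapped.

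Nucleotide exchange factors release ADP, and with it the client, from HSP70; 4 of 5 rose, with a median of 0.37. BAG1 had 50.9, 51.3 and 52.1 FPKM in the OVER43 libraries and 27.6, 35.2 and 36.1 FPKM in the EV libraries. BAG5 had 23.8, 26.4 and 24.3 FPKM in the OVER43 libraries and 16.3, 15.02 and 15.8 FPKM in the EV libraries. Both were higher in every OVER43 library than in any EV library, with a wider spread in EV for BAG1 (difference of 0.63 in log2, SE 0.0918, adjusted p = 0.000869 for BAG1; difference of 0.63 in log2, SE 0.0598, adjusted p = 0.000111 for BAG5). BAG3, which directs clients to autophagy together with small heat shock proteins, averaged 33.6 ± 1.70 FPKM in OVER43 and 25.7 ± 0.780 FPKM in EV (difference of 0.37 in log2, adjusted p = 0.000785). HSPBP1 averaged 34.8 ± 1.96 FPKM in OVER43 and 29.9 ± 0.753 FPKM in EV (difference of 0.21 in log2, adjusted p = 0.0119), a call lost with quantile and equal-sum scaling and with no filter on low values (adjusted p = 0.0617). BAG2, an inhibitor of the ligase STUB1, averaged 35.9 ± 1.27 FPKM in OVER43 and 32.5 ± 1.42 FPKM in EV (difference of 0.14 in log2, adjusted p = 0.0552); it was called higher without EV library 0 (adjusted p = 0.0486) and with a filter of 5 FPKM (adjusted p = 0.0496).

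The small heat shock protein HSPB1, or HSP27, holds unfolded proteins without ATP. It had 359.9, 345 and 389 FPKM in the OVER43 libraries and 291, 318 and 319 FPKM in the EV libraries. Its groups did not overlap (difference of 0.24 in log2, SE 0.0516, adjusted p = 0.00657), but the call ended with quantile scaling (0.08, adjusted p = 0.248), equal sums (0.09, adjusted p = 0.150) and no filter on low values (0.24, adjusted p = 0.0799). HSPB11, the intraflagellar transport component, had 20.6, 22.2 and 20.6 FPKM in the OVER43 libraries and 23.7, 24.5 and 22.7 FPKM in the EV libraries. It was lower in OVER43 (difference of −0.15 in log2, SE 0.0541, adjusted p = 0.0467) by a small margin. The adjusted p was 0.131 without OVER43 library 0, 0.118 without OVER43 library 2, 0.104 without EV library 0 and 0.139 without EV library 1.

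All 8 subunits of the TRiC chaperonin rose, with log2 differences from 0.16 to 0.53 and a median of 0.33, although TCP1 turned to −0.04 with quantile scaling. All 8 averaged above 100 FPKM, where most genes rose. The share was 67.2% at 100 to 300 FPKM (median 0.21) and 73.9% from 300 upwards (median 0.18). CCT2 had 516, 523 and 536 FPKM in the OVER43 libraries and 379.9, 361 and 353 FPKM in the EV libraries. CCT5 had 328, 321 and 341 FPKM in the OVER43 libraries and 241, 245 and 228 FPKM in the EV libraries. In both, all OVER43 libraries lay above all EV libraries (difference of 0.53 in log2, SE 0.0331, adjusted p = 1.63e-05 for CCT2; difference of 0.47 in log2, SE 0.0364, adjusted p = 4.27e-05 for CCT5). CCT6A, CCT7 and CCT3 followed at 0.38, 0.35 and 0.31. CCT4 (0.22), CCT8 (0.21) and TCP1 (0.16) rose least and lost their calls with quantile and equal-sum scaling, and TCP1 also with TMM scaling (adjusted p = 0.0546), with no filter (0.0868) and with neither the trend nor the robust option (0.0534). Each ring of the complex holds 1 copy of each subunit, yet their FPKM were not equal and spread further in OVER43. The coefficient of variation over the 8 was 42.3%, 43.4% and 44.4% in OVER43 libraries and 36.1%, 34.3% and 34.98% in EV libraries, around a mean of 282, 281 and 286 FPKM in OVER43 and 225, 221 and 213 FPKM in EV. CCT2, the most abundant subunit in both groups, was also the one that rose most.

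Of the 5 mitochondrial chaperones, 4 rose, with a median of 0.22. HSPD1, or HSP60, and HSPE1, or HSP10, form the folding chamber of the mitochondrial matrix. HSPD1 had 679.7, 686 and 698 FPKM in the OVER43 libraries and 544, 532 and 519 FPKM in the EV libraries. HSPE1 had 321, 353 and 348 FPKM in the OVER43 libraries and 246, 263 and 257 FPKM in the EV libraries. The neighbouring genes rose by like amounts (difference of 0.37 in log2, SE 0.0265, adjusted p = 2.92e-05 for HSPD1; difference of 0.41 in log2, SE 0.0432, adjusted p = 0.000176 for HSPE1). The ratio of HSPE1 to HSPD1 was 0.472, 0.515 and 0.498 in OVER43 libraries and 0.452, 0.494 and 0.496 in EV libraries, with overlapping groups. HSPA9, the matrix HSP70 or mortalin, averaged 298 ± 4.63 FPKM in OVER43 and 255 ± 8.35 FPKM in EV (difference of 0.22 in log2, adjusted p = 0.000859), a call lost with quantile scaling. DNAJA3, its J-protein, rose by 0.17 (adjusted p = 0.0226). That call ended under all 3 other scalings, with no filter (0.0868), and without OVER43 library 0 (0.0759), OVER43 library 2 (0.0607), EV library 1 (0.0705) or EV library 2 (0.0652), values that are adjusted p. TRAP1, the mitochondrial HSP90, averaged 112 ± 8.75 FPKM in OVER43 and 109 ± 2.31 FPKM in EV (difference of 0.04 in log2, adjusted p = 0.584) with overlapping groups, and was called lower with quantile scaling (−0.16).

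HSF2, a heat shock factor with roles in development, had 10.1, 9.75 and 9.24 FPKM in the OVER43 libraries and 11.1, 9.60 and 11.3 FPKM in the EV libraries. The groups overlapped and the gene was not called (difference of −0.13 in log2, SE 0.0779, adjusted p = 0.224), except as lower with equal sums (−0.26, adjusted p = 0.0351). HSF1, below the filter, had 0.0115, 0.0201 and 0.0225 FPKM in the OVER43 libraries and 0.0232, 0.0103 and 0.163 FPKM in the EV libraries, with overlapping groups. Given the near-zero values of core genes such as PGK1, this gives no measure of the amount of HSF1.

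Genes of chromosome 14 were higher in OVER43 as a group: of 428 tested genes there that are not in the list, 68.0% rose, and their median log2 difference was 0.43. The list has 4 genes on it, HSP90AA1, AHSA1, BAG5 and HSPA2. The 3 that were tested all rose, and their differences exceeded that median by 0.75, 0.48 and 0.20. What moves the chromosome was not tested. Chromosome 9 had a median of −0.20 taken over its whole length, and DNAJA1 and BAG1, which lie there, rose 0.87 and 0.84 above it. The shift was not measured by region, so the median near DNAJA1 and BAG1, at hg19 33025209 and 33218363, may differ. Of the wider list described below, CDC37L1 at 4679559 on that chromosome differed by 0.01 and DNAJB5 at 34989638 by −0.49. Without chromosome 14, 33 of 44 tested chaperone genes rose and 2 fell, with a median of 0.30. Set against the median of its own chromosome, the difference was higher for 42 of 46 genes and lower for 4, which are STIP1 (by −0.38), HSPB11 (−0.20), HSF2 (−0.16) and HSPA4L (−0.02). Over all genes, 50.1% lay above the median of their chromosome. That share is not matched for expression level, and abundant genes had higher differences. The median of all genes was 0.14 at 30 to 100 FPKM, 0.21 at 100 to 300 and 0.18 from 300 upwards. In hg19 positions, the locus of HSP90AA1 in the deposited tables is chromosome 14 from 102547075 to 102771537, shared with other genes, that of AHSA1 is 77893018 to 77935817 on the same chromosome, and that of STIP1 is chromosome 11 from 63952744 to 63972015. Of the 50 genes, 31 lie in a locus that holds more than 1 gene, and which strand was read is not stated, so reads of overlapping genes may be mixed.

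**Figure D4:**
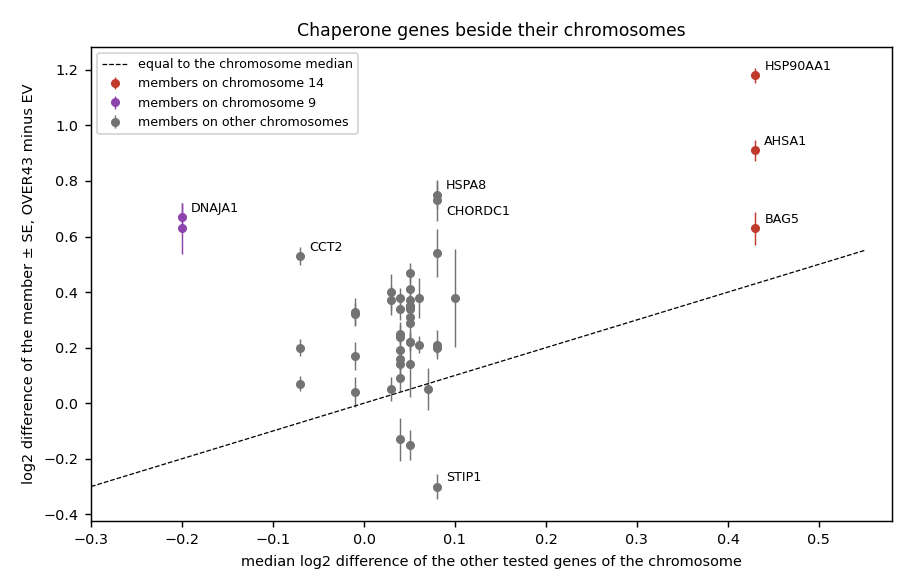
The log2 difference of each chaperone gene (± SE) is plotted against the median difference of the other tested genes of its chromosome; the dashed line marks equality. The chromosome 14 genes lie at a median of 0.43 and the chromosome 9 genes at −0.20, all above the line, and STIP1 lies below it.

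At the level of transcripts, every call but 1 went the way of its gene, the exception being DNAJB6-201. Of 89 transcripts that held at least 10% of their gene in a group, 79 were tested. Of these 43 rose and 1 fell, against 9.77% and 4.82% of all 31220 entries tested. The 31220 were not held to the 10% rule and include minor transcripts, and calls depend on level, so the 2 sets are not alike. The 1 that fell was STIP1-201, with 125 ± 0.732 FPKM in OVER43 and 153 ± 6.08 FPKM in EV (difference of −0.28 in log2, adjusted p = 0.00571), which held 87.0% of the gene in OVER43 and 85.7% in EV. For AHSA1, the coding AHSA1-201 averaged 196 ± 8.03 FPKM in OVER43 and 118 ± 9.46 FPKM in EV (difference of 0.73 in log2, adjusted p = 0.0022), while its share of the gene was 70.1% in OVER43 and 79.4% in EV. Its retained-intron form AHSA1-207 took 13.9% in OVER43 and 8.11% in EV. AHSA1-207 averaged 38.99 ± 9.55 FPKM in OVER43 and 12.02 ± 8.16 FPKM in EV (difference of 1.76 in log2, adjusted p = 0.0468). Another retained-intron form, AHSA1-211, took 13.7% in OVER43 and 9.24% in EV and was not called (difference of 1.46 in log2, adjusted p = 0.0819). All 3 coding transcripts of CHORDC1 rose, by 0.81, 0.60 and 0.79. Of TCP1, the transcript TCP1-201 rose (difference of 0.28 in log2, adjusted p = 0.0053), while TCP1-202 averaged 38.2 ± 1.07 FPKM in OVER43 and 37.3 ± 1.11 FPKM in EV (difference of 0.03 in log2, adjusted p = 0.677).

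A wider list of 113 other chaperone genes and partners moved in both directions. Of its 87 tested genes, 30 rose (34.5%), 20 fell and 37 passed in neither direction. Over all tested genes, 28.4% rose and 17.5% fell. The median of the list was 0.06, near the 0.05 of all genes. With equal sums 15 genes of the list rose and 29 fell. Genes listed as other HSP90 co-chaperones rose in 13 of 24 cases and fell in 4. That class also holds HSP90B1, itself an HSP90 (0.23, called higher), and the pseudogene AHSA2P, which was not called. Other J-proteins rose in 6 of 29 and fell in 7, and other HSP70s and exchange factors rose in 3 of 7 and fell in 2. None of 8 other small heat shock proteins reached the filter. The largest increases were in SERPINH1, a collagen chaperone of the endoplasmic reticulum (86.7 ± 2.15 FPKM in OVER43 and 53.6 ± 1.33 FPKM in EV; difference of 0.68 in log2, adjusted p = 9.12e-06), in FNIP1, a regulator of the HSP90 ATPase (0.49), in CACYBP (0.44), in DNAJB12 (0.41) and in NUDC, a co-chaperone of dynein function (0.39). Among genes with a mean of at least 1 FPKM over the libraries, the largest decreases were in DNAJC12, a partner of aromatic amino acid hydroxylases (difference of −0.66 in log2, adjusted p = 6.84e-05), in SGTB (−0.63), in FKBP15 (−0.60), in DNAJC25 (−0.59) and in DNAJB5 (−0.49). FKBP15, DNAJC25 and DNAJB5 lie on chromosome 9, whose median was −0.20. ATF3, a stress-induced transcription factor whose mean lay below that level, also fell, with 0.464 ± 0.0612 FPKM in OVER43 and 1.29 ± 0.281 FPKM in EV (difference of −0.64 in log2, adjusted p = 0.00616).

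By the q-values of the authors' deposited table, 24 of the 47 tested chaperone genes are called higher in OVER43 and 1 lower, STIP1, against 14.5% and 10.1% of all tested genes. Called higher by limma but not by those q-values were HSPE1, TCP1, CCT4, CCT8, CDC37, FKBP4, FKBP5, ST13, DNAJA3, DNAJC2, DNAJC9 and HSPBP1. Their q ran from 0.0501 for DNAJC9 to 0.468 for TCP1, with 0.293 for HSPE1. The log2 differences of the authors' deposited table, given as EV over OVER43, are −1.18 for HSP90AA1 and 0.30 for STIP1. HSPB11 has q = 0.3402 in the authors' deposited table.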

How the data were processed

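TruSeq libraries of poly(A) RNA from 6 RKO samples were sequenced, per the labels' protocols. The authors deposited a table of 63563 genes and one of 251748 isoform entries; per the submitters' processing notes the tool was Cuffdiff. Its version, the aligner and the strandedness are not given in the sources used. Per the file headers, the deposited tables hold FPKM per library, the authors' group means, a log2 fold change of EV over OVER43, a test score, and the authors' p-values and q-values, of which only the fold change and q-value are quoted. The notes name hg38, but the loci are hg19 positions. Promoter windows come from RefSeq (GRCh38.p14).

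The test was limma 3.58.1 under R 4.3.3, with the trend and robust options, for genes that reached 1 FPKM in 3 or more of 6 libraries. It ran on log2(FPKM + 1), two-sided, with Benjamini-Hochberg adjustment over all tested genes and a threshold of 0.05; isoform entries likewise. Cuffdiff gave no estimate for 19 genes, which were left out. Columns are numbered 0 to 2 and the labels 1 to 3, so columns could be tied to a group but to no particular sample; 0 per-library columns were unused. Depth was read from low values, of which 95.8% to 99.6% lay within 0.1 of a whole fragment; intervals were not computed. Libraries were not copies: at most 8 values were identical in a pair. Tested on simulated data with 200 changed genes of 12205, the procedure recovered 61% of log2 changes of 0.5 and 87% of changes of 1, with 6 false calls. In the real data 45.9% of genes were called, so these rates need not carry over. The simulated noise had the spread within groups and was independent between genes, so it does not cover differences between transfected lines.

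Values per library are given for genes on chromosome 14, the largest changes per role class, genes called lower, the heat shock factors, HSPA1A and HSPA1B; of the wider list, the 5 largest changes each way among called genes with a mean of at least 1 FPKM are named. The genes, lists and rules were chosen with earlier results of these data known. Alternatives were 3 scalings (TMM in own code in R, quantile and equal sums), a filter of none or 5 FPKM, 0.1 as the pseudocount, the column number as a block, limma with neither option, and leaving out each library. Counts and the promoter search were made with Python 3.11.15.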

Additional observations from a re-analysis of the deposited data

How the results depend on the processing

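Of the 36 chaperone genes that rose, TMM scaling kept 34; 32 rose with no filter, 36 with at least 5 FPKM (35 of them shared, with HSPA1B untested and BAG2 gained), 36 with a pseudocount of 0.1, 35 with neither trend nor robust and 35 to 37 (losing DNAJA3 or gaining BAG2) when 1 library was left out. The count that fell was 2 as reported, 4 with quantile scaling and with equal sums, 1 with no filter, with neither trend nor robust and with the replicate block, and 1 to 2 when 1 library was left out. Over all genes, equal sums gave 1867 higher and 3579 lower, against 3462 and 2138. In the wider list, 30 rose as reported, 15 with equal sums and 17 with no filter. HSPB11 also lost its call with no filter (adjusted p = 0.118), with the replicate block (0.0524) and with neither trend nor robust (0.0593). The column numbers did not pair the libraries, since deviations of same-numbered libraries correlated at 0.0166, −0.0909 and 0.0285; with the replicate block 36 chaperone genes rose. None of the 38 chaperone genes called as reported was called in the opposite direction under any of these settings; PTGES3, TRAP1 and HSF2 were called lower only under the scalings named with them. The cause of these changes was not tested. Depth limits the genes near 1 FPKM, HSPA1B and DNAJC7 among them.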

Other observations

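Isoform entries that span a whole gene with its introns were compared for 43 chaperone genes with at least 0.1 FPKM in a group, a comparison added after the data were seen. OVER43 libraries lay above EV libraries for 12 genes, against 12.2% of all such entries, and below for 6, against 32.5%; 25 overlapped. HSP90AA1 was among the 12, with 0.367, 0.317 and 0.319 FPKM in OVER43 libraries and 0.177, 0.169 and 0.169 FPKM in EV libraries. STIP1, whose gene value was lower in OVER43, was also among the 12, as were HSPA8, AHSA1 and DNAJA1, and PTGES3, BAG2 and TRAP1 were among the 6. Genomic DNA and reads leaking from exons are not separated from unspliced RNA in these entries.

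Genes for folding of actin and tubulin, which work with TRiC, are described here although they were picked out after values were seen. Of 12 tested genes of prefoldin and tubulin or actin folding, 1 rose and 5 fell, with a median log2 difference of −0.12, against 28.4% and 17.5% of all genes as deposited and 15.3% and 29.3% with equal sums. PFDN2, a prefoldin subunit, averaged 139 ± 8.14 FPKM in OVER43 and 188 ± 4.58 FPKM in EV (difference of −0.44 in log2, adjusted p = 0.000162), PFDN5 245 ± 9.91 FPKM in OVER43 and 281 ± 4.78 FPKM in EV (difference of −0.20 in log2, adjusted p = 0.0024) and TBCB, a tubulin folding cofactor, 36.9 ± 2.34 FPKM in OVER43 and 50.3 ± 0.872 FPKM in EV (difference of −0.44 in log2, adjusted p = 0.000342). PDCL and TXNDC9, phosducin-like partners of TRiC, differed by −0.42 and −0.39. PDCL lies on chromosome 9, whose median was −0.20. TBCD, another tubulin cofactor, rose by 0.30.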
